A study of Mus musculus with 10 samples.

Results

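The 61 genes described here encode potassium channel subunits, both the subunits that form the pore and the auxiliary subunits that bind to them. They were taken from the deposited count table of 14300 genes by gene symbol, as every symbol that starts with Kcn followed by a letter, without names that end in os. The rule matched 64 symbols, and 3 of these, the long noncoding RNA *Kcnq1ot1*, the antisense RNA *Kcnmb4os2* and the regulator *Kcnrg*, encode no channel subunit and were set apart. The annotation of the GRCm38 genome holds 93 protein-coding genes of this kind, of which 32 have no row in the table and were not analysed here. The table lists only genes detected in at least 5 libraries, and *Kcnk5* exceeded the level of 0.5 CPM (counts scaled by library size) in no TdTomato+ library, so the counts of members below describe the genes that passed this limit. Of the 61 members, 52 were over 0.5 CPM in every library.

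The samples were cells from *Grem1creERT; Rosa26LSLTdTomato* embryos of the C57BL/6J strain, in which a tamoxifen-inducible Cre recombinase under *Grem1* regulatory sequences switches on the red protein TdTomato for good. Dams received tamoxifen at E13.5, and 24 h later, at E14.5, cells were dissociated from the dorsal telencephalon, the part of the embryonic brain that forms the cortex, and live cells were sorted into TdTomato+ and TdTomato- populations. Both populations carry the same alleles and tamoxifen exposure and differ in whether Cre had acted, so TdTomato+ cells are those in which the driver was active at labelling and their progeny, and TdTomato- cells are all other live cells of the tissue. RNA was sequenced in 5 libraries of each population, 1 of each for the numbers 2 to 6 of the sample titles, which are called mice here.

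Potassium channels let potassium leave the cell and thereby set the resting potential, end the action potential and limit repetitive firing. The voltage-gated families (Kv1 to Kv4, Kv7 and the EAG, ERG and ELK group) open on depolarization, the BK and SK channels open on calcium, the inward rectifiers and the two-pore-domain channels pass current near the resting potential, and auxiliary subunits change the gating or the surface transport of their partners. Newborn cortical neurons acquire these currents step by step as they leave the ventricular zone, whereas radial glia have a large resting potassium conductance.

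Totals were 23429034 to 27286180 counts per library. The populations differed in the levels of cell type markers. All 4 neuronal markers (*Tubb3*, *Dcx*, *Neurod6* and *Tbr1*) were higher in TdTomato+ cells, where they summed to 7850.3 to 9016 CPM against 3640.2 to 4415 CPM in TdTomato- libraries. All 4 radial glia markers were lower, summing to 32.3 to 48.4 CPM against 489.7 to 551 CPM, as were both markers of intermediate progenitors (15.1 to 32.1 against 449.8 to 634 CPM) and all 6 GABAergic markers (41.1 to 62.0 against 1256 to 1638 CPM). None of these 16 markers was at 0 in any library. In bulk RNA of sorted cells, fewer cells of a type and less RNA per cell cannot be told apart, which applies to every difference below, and the part of these cell types in the channel differences was not tested.

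More channel genes were higher than lower in TdTomato+ cells, and the ones that fell included the largest changes among the members. Fold changes are given on the log2 scale as TdTomato+ over TdTomato-. When members had to reach both an adjusted p no higher than 0.05 and a log2 fold change of 2 in size, 12 members were higher (19.7%), beside 3.20% of all genes tested. The 6 lower members (9.84%) stand beside 9.74% of all genes, a share near the background. With adjusted p alone, 39 members (63.9%) were higher and 15 (24.6%) lower, beside 37.9% and 39.4% of all genes, and 7 members passed neither threshold. The median log2 fold change was 0.891 over the 61 members and -0.0063 over the 14300 genes, and single members ran from -5.31 to 3.97. Scaling by total counts alone, which puts the median of all genes at -0.18, gave 9 members higher and 7 lower past both thresholds, and testing the fold change against 2 itself (TREAT) gave 7 and 4. Of the members described below as past both thresholds, *Kcnq3*, *Kcna1*, *Kcna4*, *Kcnt2*, *Kcnc2* and *Kcnh1* did not pass TREAT.

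By role, 29 of 46 pore-forming genes passed the adjusted p as higher and 12 as lower, with a median log2 fold change of 0.90. Of the 5 silent Kv subunits, which form no channel by themselves and alter Kv2, 3 were higher and 1 was lower. Of the 10 auxiliary subunits, 7 were higher and 2 lower, with a median of 0.49. Beside each of these counts stand 37.9% of all genes higher and 39.4% lower by adjusted p. The same shares stand beside the subfamily counts below. Summed over the 46 pore-forming genes, the level per exon length was 246 to 257 CPM per kilobase of exon in TdTomato+ libraries and 133 to 145 in the other population, so that the populations did not overlap.

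**Figure D1:**
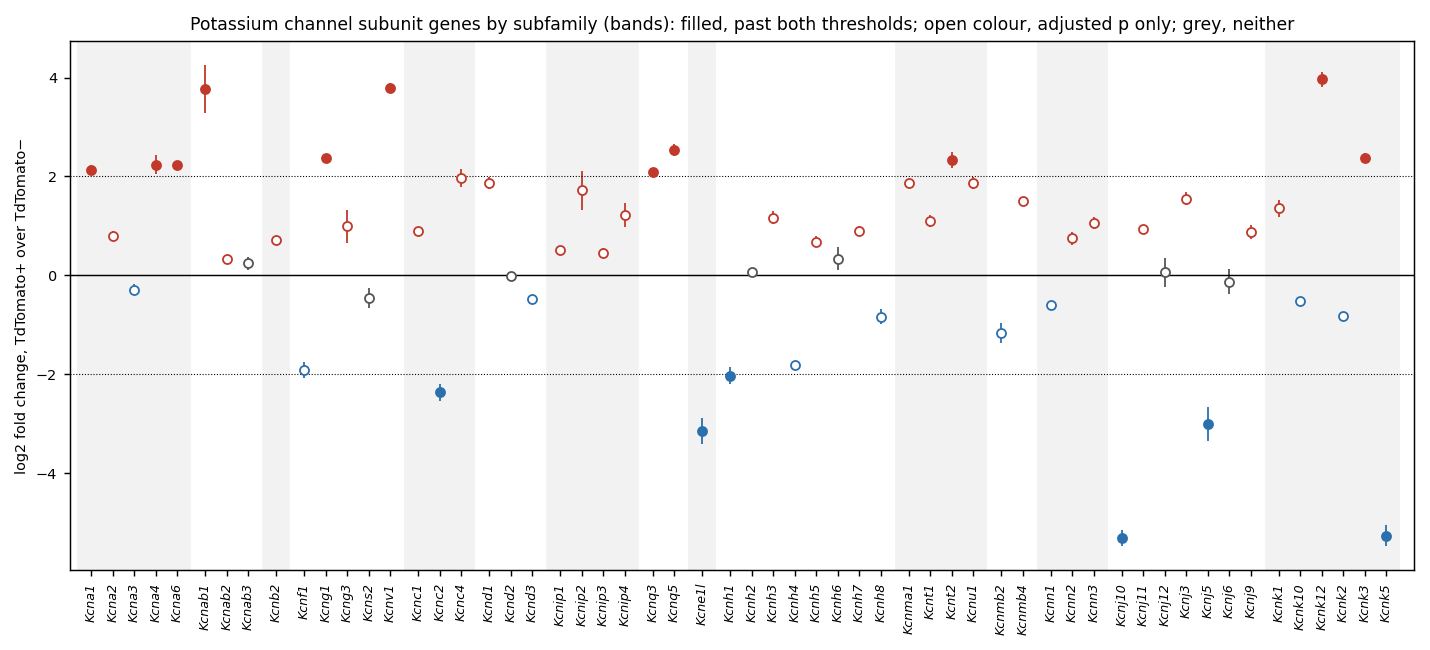
Log2 fold change of 57 of the 61 members, TdTomato+ over TdTomato-, with its standard error, grouped by subfamily in alternating bands. Filled points pass both thresholds (11 red above 2, 6 blue below -2), open coloured points pass the adjusted p only, and grey points pass neither. The 4 genes of the Slo family lie above 1, whereas the inward rectifiers run from -5.31 to 1.55.

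The Kv7 genes were the most abundant pore-forming subfamily in both populations and all 4 measured members were higher in TdTomato+ cells. Kv7 subunits carry the M-current, a slow potassium current that muscarinic receptors shut and that restrains repetitive firing, and *Kcnq3* is one of its main subunits in neurons. *Kcnq3* (ENSMUSG00000056258, chromosome 15 from 65986387 to 66286642, minus strand) was at 519, 540.4, 512, 525 and 563 CPM in the TdTomato+ libraries of mice 2 to 6 and at 126, 132, 117, 110.3 and 135 CPM in their TdTomato- libraries. The lowest TdTomato+ library was far above the highest TdTomato- library, and the log2 fold change was 2.10 with a standard error of 0.04 (adjusted p = 1.8e-09).

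*Kcnq5*, a further M-current subunit of the brain, was at 38.1, 15.2, 14.4, 40.5 and 40.0 CPM against 5.43, 3.28, 3.49, 5.90 and 6.20 CPM (log2 fold change 2.54, s.e. 0.12, adjusted p = 1.1e-07). In both populations *Kcnq5* was lowest in mice 3 and 4, and the log2 difference within a mouse stayed between 2.02 and 2.79. The log2 fold change of *Kcnq3* was 1.93 when scaled by total counts alone, under the threshold of 2, and *Kcnq3* did not pass TREAT (adjusted p = 0.051). *Ank2* and *Ank3*, the ankyrins of which *Ank3* holds Kv7 channels at the axon initial segment, had log2 fold changes of 1.20 and 1.59 (adjusted p = 1.3e-08 and 8.9e-09).

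In the Kv1 subfamily the gene with the highest level per exon length differed between the populations. Kv1 channels open at low voltage and act in axons and terminals, and 4 of the 5 measured genes were higher in TdTomato+ cells. *Kcna6* was at 93.4, 91.6, 91.5, 85.0 and 96.5 CPM in TdTomato+ and 19.9, 17.0, 22.3, 19.2 and 18.7 CPM in TdTomato- libraries (log2 fold change 2.24, s.e. 0.07, adjusted p = 6.2e-09). Its 5 TdTomato+ values lay close together and far above the others. An antisense gene, *Gm26673*, covers 39.6% of its exonic length, and reads from opposite strands cannot be told apart where the counting did not use strand. *Kcna1*, an axonal subunit, was at 29.5, 31.8, 36.4, 28 and 33.2 CPM against 5.36, 8.88, 7.62, 7.49 and 6.97 CPM (log2 fold change 2.13, s.e. 0.10, adjusted p = 8.0e-08), which was 1.96 with total counts, and *Kcna1* did not pass TREAT (adjusted p = 0.28).

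*Kcna4*, whose channels inactivate quickly, was at 4.94, 8.67, 7.77, 5.52 and 3.48 CPM against 1.64, 1.31, 1.28, 1.11 and 0.906 CPM (log2 fold change 2.24, s.e. 0.19, adjusted p = 4.7e-06). *Kcna2* rose less, with a log2 fold change of 0.79. *Kcna3*, a subunit also known from T lymphocytes, was slightly lower (log2 fold change -0.29, s.e. 0.11, adjusted p = 0.032), with 12.0 to 19.4 CPM in TdTomato+ and 16.6 to 24.1 CPM in TdTomato- libraries. These ranges overlapped, 1 of 5 mice went the other way, and the call was lost without mouse 2, 3, 5 or 6 (adjusted p of up to 0.1) and without the mouse block. Per length, *Kcna3* was 57.6 to 68.7% of the Kv1 level in TdTomato- libraries and 21.0 to 28.7% in TdTomato+ libraries, whereas *Kcna6* went from 15.5 to 24.7% to 42.0 to 52.1%. This order rests on the division by length, as in CPM *Kcna6* had the higher mean in both populations (19.4 against 18.9 CPM for *Kcna3* in TdTomato- libraries). The summed Kv1 level was 30.1 to 36.6 against 14.3 to 18.4 CPM per kilobase.

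Kv1 beta subunits, which bind Kv1 on its cytoplasmic face, rose unevenly. *Kcnab1* was at 17.1, 5.2, 2.56, 19.5 and 9.36 CPM in TdTomato+ and 0.508, 0.691, 1.04, 0.396 and 0.662 CPM in TdTomato- libraries (log2 fold change 3.77, adjusted p = 9.5e-05), with a standard error of 0.49, the largest of the 61 members. The ranges did not overlap, but the highest TdTomato+ library was 7.62 times the lowest, and the difference within a mouse ran from 1.23 to 5.36. Leaving out 1 mouse moved the estimate between 3.32 and 4.34. *Kcnab2*, the leading beta subunit, was at 28.3, 25.4, 26.9, 28.4 and 28.1 against 20.1, 22.2, 22.9, 23.6 and 20.5 CPM (log2 fold change 0.33, adjusted p = 0.0011), and *Kcnab3* did not pass the test (0.24, adjusted p = 0.11). Of 9 listed genes of the Kv1 complex and its clustering, 6 were higher and 1 was lower by adjusted p (37.9% and 39.4% of all genes were), and *Lgi1*, a secreted partner of Kv1, passed both thresholds at 23.2 to 45.6 against 5.63 to 7.06 CPM (log2 fold change 2.50, adjusted p = 4.4e-07).

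The silent Kv subunits held some of the steepest rises and *Kcng1* was among the most abundant channel genes of TdTomato+ cells. *Kcnv1*, a silent partner of Kv2, was at 34.9, 46.4, 43.3, 44.3 and 38.8 CPM against 1.92, 3.66, 4.13, 2.77 and 2.72 CPM (log2 fold change 3.79, s.e. 0.11, adjusted p = 5.6e-09). The lowest TdTomato+ library was far above the highest TdTomato- library. *Kcng1* was at 126, 196, 203, 143 and 147 CPM against 19.0, 39.5, 39.2, 28.2 and 33.8 CPM (log2 fold change 2.37, s.e. 0.08, adjusted p = 1.1e-08). Mouse 2 was lowest in both populations for *Kcng1*. Its mean level per length in TdTomato+ cells, 36.1 CPM per kilobase, was next to that of *Kcnq3* (36.2), and the ranges of these neighbours overlapped.

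Other members of the silent group went the other way or stayed near the limit. *Kcnf1* fell (log2 fold change -1.91, s.e. 0.16, adjusted p = 5.5e-06), from 6.48 to 11.6 CPM to 1.54 to 3.13 CPM. *Kcng3*, with 0.238 to 1.55 CPM over all libraries, had a log2 fold change of 0.99 (adjusted p = 0.022) that was lost without mouse 3, 4 or 5, with DESeq2 and with total counts, and *Kcns2* did not pass (-0.46, adjusted p = 0.059). *Kcnb2*, a Kv2 subunit of the kind that these genes partner and a delayed rectifier of the cell body, was at 25.4, 30.1, 27.9, 31.3 and 22.9 against 16.5, 18.9, 17.2, 16.2 and 14.8 CPM (log2 fold change 0.72, s.e. 0.06, adjusted p = 7.4e-06). The silent group summed to 36.3 to 55.8 CPM per kilobase in TdTomato+ libraries, against 7.0 to 12.5 in TdTomato- libraries.

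**Figure D2:**
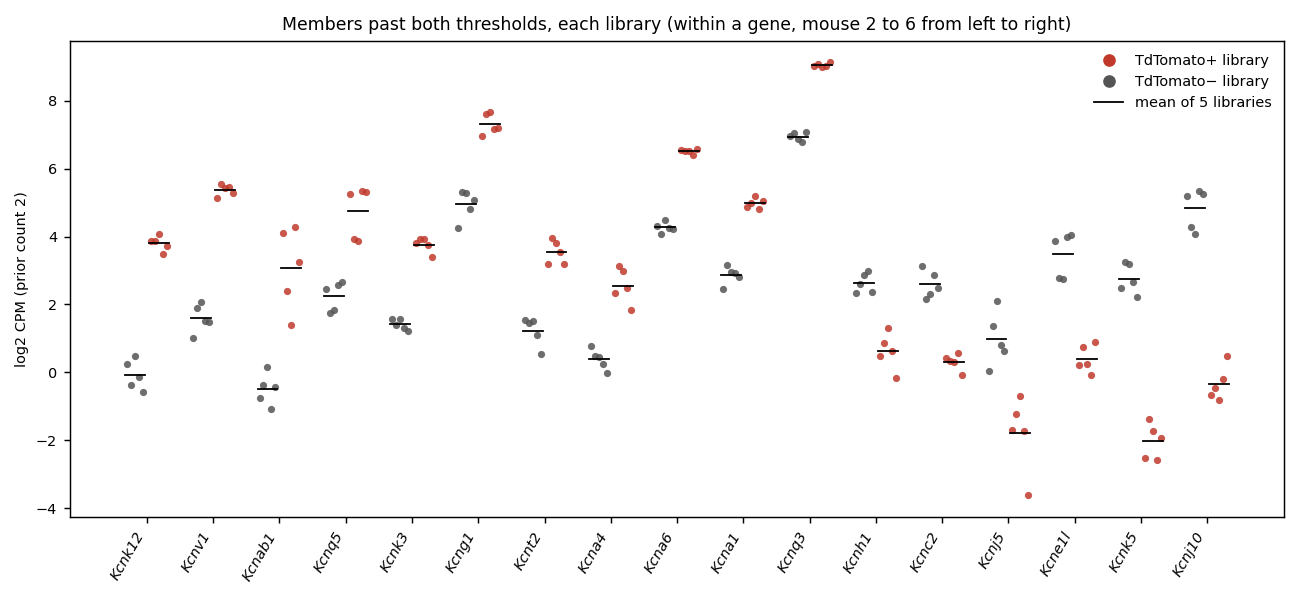
Log2 CPM in each library of 17 of the 18 members past both thresholds (TdTomato+ red, TdTomato- grey; within a gene, mice 2 to 6 from left to right; black bars are means of 5 libraries). The populations do not overlap in these genes, but the genes were chosen by their difference in the same libraries, so this is no separate evidence. The TdTomato+ points of *Kcnab1* spread most among the higher members shown.

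Kv3 and Kv4 genes split within the subfamily. Kv3 channels close fast and let neurons fire at high rates. *Kcnc1*, the leading Kv3 gene, was at 121, 107, 112, 101 and 110.4 against 67.2, 55.1, 54.8, 58.8 and 59.5 CPM (log2 fold change 0.90, s.e. 0.05, adjusted p = 2.2e-07), and *Kcnc4* rose as well (log2 fold change 1.97, adjusted p = 1.0e-05). *Kcnc2*, a Kv3 subunit of cortical inhibitory interneurons, fell: it was at 1.27, 1.17, 1.15, 1.39 and 0.859 CPM in TdTomato+ and 8.76, 4.39, 4.85, 7.21 and 5.54 CPM in TdTomato- libraries (log2 fold change -2.37, s.e. 0.17, adjusted p = 1.4e-06). The 6 GABAergic markers fell beside it, from 1256 to 1638 CPM in sum to 41.1 to 62.0 CPM, and in TdTomato- cells both *Kcnc2* and the sum of these markers were lowest in mice 3 and 4 (1276 and 1256 CPM for the markers, beside 1313 to 1638 CPM in the others). Their part in the *Kcnc2* result was not tested.

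Kv4 channels give the A-type current of dendrites, which activates below threshold and inactivates quickly. *Kcnd1* rose (log2 fold change 1.86, adjusted p = 6.5e-07), *Kcnd2* did not pass the test (-0.02, s.e. 0.09, adjusted p = 0.85), and *Kcnd3*, the leading gene, fell: it was at 58.2, 54.2, 58.3, 56.0 and 53.0 against 73.7, 85.4, 82.0, 75.7 and 72.5 CPM (log2 fold change -0.48, s.e. 0.05, adjusted p = 3.1e-05). The summed Kv4 level covered almost the same range in both populations, 11.3 to 12.9 and 11.2 to 13.5 CPM per kilobase. *Kcnd1* made up 19.5 to 27.4% of it in TdTomato+ libraries, against 4.86 to 9.15% in the other population.

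All 4 measured KChIP genes, which encode calcium-binding partners of Kv4, rose. *Kcnip3*, the leading one, was at 45.8, 54.0, 45.0, 46.5 and 42.6 against 36.4, 29.7, 28.8, 37.6 and 38.8 CPM (log2 fold change 0.45, s.e. 0.10, adjusted p = 0.0023). *Kcnip2* had counts of 416, 59, 76, 285 and 340 in TdTomato+ libraries and 71, 66, 70, 75 and 67 in TdTomato- libraries. Its TdTomato- libraries barely differed, whereas the TdTomato+ libraries of mice 3 and 4 were near the TdTomato- level and those of the other mice were several times higher. The log2 fold change was 1.72 (s.e. 0.40, adjusted p = 0.0035), with differences of 0.16 to 2.73 within a mouse, and the populations overlapped in CPM. Of the other Kv4 partners, *Dpp6* was higher (0.53, adjusted p = 4.1e-05) and *Dpp10* lower (-1.54, adjusted p = 8.3e-06).

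The EAG, ERG and ELK genes moved in both directions. *Kcnh1*, an EAG channel found in dividing cells as well as in neurons, fell: it was at 1.31, 1.73, 2.38, 1.48 and 0.814 against 5.00, 5.98, 7.26, 7.81 and 5.12 CPM (log2 fold change -2.03, s.e. 0.17, adjusted p = 5.2e-06). Its estimate lies just past the threshold, and was -1.94 without mouse 5 and -1.91 without mouse 6. The ELK genes *Kcnh4* and *Kcnh8* fell by 1.82 and 0.84 on the log2 scale, and the third ELK gene, *Kcnh3*, rose (1.17, adjusted p = 3.3e-05), as did the EAG gene *Kcnh5* (0.68) and the ERG gene *Kcnh7* (0.89). *Kcnh2*, the ERG channel of the heart, was at 28.5, 27.6, 28.5, 29.5 and 29.2 against 28.1, 26.9, 34.5, 25.0 and 24.0 CPM and did not pass the test (0.06, s.e. 0.08, adjusted p = 0.53, and -0.12 with total counts). Per exon length *Kcnh2* had the highest mean of the group, with a range that overlapped that of *Kcnh3* in TdTomato+ cells. In TdTomato- cells its range overlapped that of *Kcnh4* (4.96 to 7.13 against 3.78 to 7.18 CPM per kilobase). In CPM *Kcnh7* was above *Kcnh2* in both populations (75.3 against 28.7 and 40.8 against 27.7). *Kcnh6* did not pass either (0.34, adjusted p = 0.22). The summed level of the 8 genes overlapped, at 19.1 to 24.4 and 18.8 to 22.8 CPM per kilobase.

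All 4 genes of the Slo family were higher in TdTomato+ cells. *Kcnma1*, the pore of the BK channel that calcium and voltage open together, was at 33.1 to 42.5 against 8.96 to 13.1 CPM (log2 fold change 1.86, s.e. 0.08, adjusted p = 7.2e-08). *Kcnmb4*, the neuronal BK beta subunit, was at 46.8, 40.4, 39.2, 46.3 and 42.0 against 13.4, 13.4, 16.3, 17.0 and 15.9 CPM (log2 fold change 1.5, s.e. 0.08, adjusted p = 1.8e-07), so that the pore gene and this partner rose together. Its exons overlap antisense genes over 31.5% of their length, of which *Kcnmb4os2* had a log2 fold change of 1.15. *Kcnmb2*, an inactivating beta subunit, fell (-1.16, adjusted p = 5.7e-04) at 0.486 to 2.03 CPM over all libraries, and *Lrrc55*, a BK gamma subunit, was at 41.6 to 55.8 against 8.60 to 10.7 CPM (log2 fold change 2.31, adjusted p = 6.4e-08).

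*Kcnt1* and *Kcnt2* encode the channels that sodium opens. *Kcnt2* was at 8.98, 15.4, 14, 11.6 and 9.04 against 2.85, 2.66, 2.77, 2.06 and 1.36 CPM (log2 fold change 2.33, s.e. 0.16, adjusted p = 9.4e-07), and *Kcnt1* rose too (log2 fold change 1.10, adjusted p = 2.1e-05). *Kcnu1* encodes Slo3, which is best known from sperm. It was at 9.88, 8.93, 8.04, 10.3 and 10.3 against 2.54, 2.70, 2.57, 2.18 and 3.00 CPM (log2 fold change 1.87, s.e. 0.12, adjusted p = 7.2e-07). Per length its mean of 2.54 CPM per kilobase in TdTomato+ cells stood beside 2.29 for *Kcnma1*, whereas in TdTomato- cells its 0.695 was under the 0.882 of *Kcnt1*. This order rests on the division by length. In CPM *Kcnma1* was far above *Kcnu1*, at 38.8 against 9.49 in TdTomato+ and 10.7 against 2.60 in TdTomato- cells. The highest TdTomato+ library of *Kcnu1* was 1.28 times the lowest.

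The SK channels, opened by calcium alone and responsible for the afterhyperpolarization that follows spikes, shifted from *Kcnn1* to its relatives. *Kcnn1* was at 17.5, 24.1, 25.0, 18.8 and 20.4 against 24.3, 35.9, 36.6, 30.4 and 31.9 CPM (log2 fold change -0.59, s.e. 0.05, adjusted p = 7.6e-06), lower within each of 5 mice although the ranges of the populations met. *Kcnn2* and *Kcnn3* rose with 0.75 and 1.06 (adjusted p = 6.1e-04 and 3.0e-05). As shares of the SK level per length, *Kcnn1* was 41.0 to 59.5% in TdTomato- libraries, against 24.7 to 29.1% in TdTomato+ libraries. The large share in TdTomato- libraries rests on the division by length. In CPM the TdTomato- means were close, at 31.8 for *Kcnn1*, 30.6 for *Kcnn2* and 28.8 for *Kcnn3*, and *Kcnn1* was below *Kcnn2* in mice 2 and 6.

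**Figure D3:**
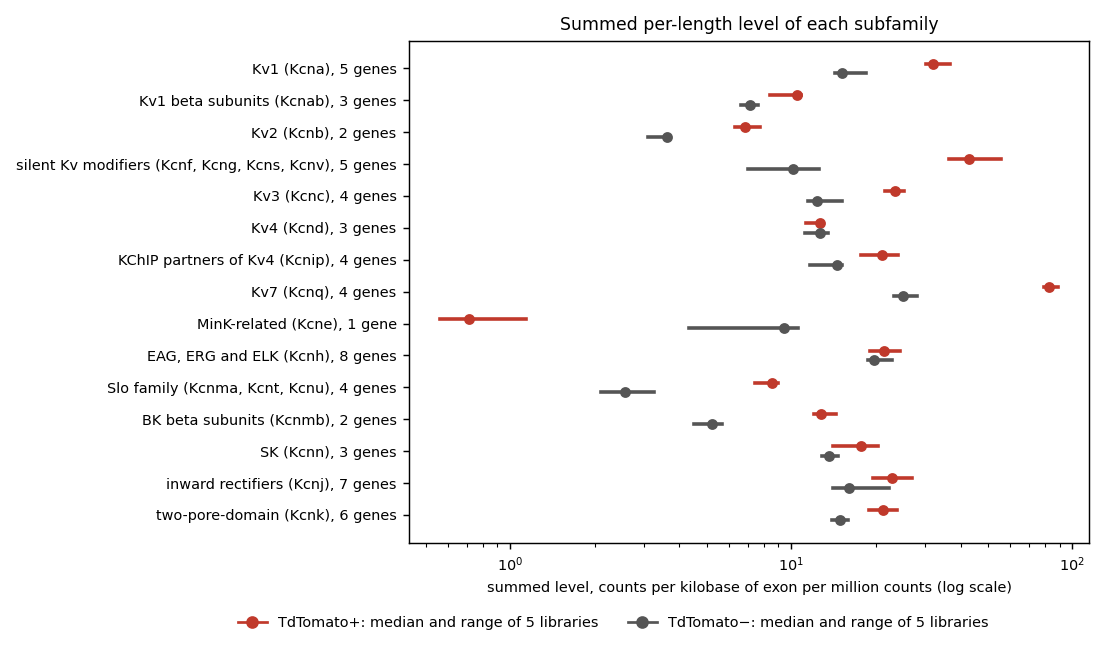
Summed level of each subfamily in CPM per kilobase of exon on a log axis, as the median (point) and range (line) of 5 libraries for TdTomato+ (red) and TdTomato- (grey). Kv7 is highest in both populations, at 78.9 to 89.2 against 23.2 to 28.1, the ranges of Kv4, SK, the inward rectifiers and the EAG, ERG and ELK group overlap, and the single MinK-related gene is the only row in which TdTomato- lies higher throughout.

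The inward rectifiers held one of the largest falls. *Kcnj10*, the channel through which glia take up potassium, lies on chromosome 1 from 172341210 to 172374085 on the plus strand (ENSMUSG00000044708). It was at 0.544, 0.651, 0.486, 0.783 and 1.31 CPM in TdTomato+ and 36.9, 19.3, 16.6, 41.0 and 38.1 CPM in TdTomato- libraries (log2 fold change -5.31, s.e. 0.16, adjusted p = 6.8e-09). The TdTomato+ libraries held 11 to 29 counts, and the TdTomato- libraries of mice 3 and 4 were below the other 3. Markers of radial glia (32.3 to 48.4 against 489.7 to 551 CPM in sum) and the 3 measured markers of oligodendrocyte precursors (1.94 to 3.35 against 40.8 to 60.9 CPM) were lower in TdTomato+ cells too, and in the TdTomato- libraries of mice 3 and 4 the precursor markers summed to 40.8 and 43.1 CPM and the 4 measured microglial markers to 10.9 and 15.3 CPM, beside 52.3 to 60.9 and 39.1 to 53.0 CPM in the other mice. The radial glia markers summed to 551, 527, 489.7, 547 and 509 CPM in TdTomato- libraries of mice 2 to 6. Sums of pericyte markers (11.5 and 10.6 CPM in mice 3 and 4, beside 16.0 to 17.4), GABAergic markers (1276 and 1256, beside 1313 to 1638) and erythroid markers (31.7 and 43.5, beside 45.9 to 106) were lowest in mice 3 and 4 too. Sums of neuronal markers (4171 and 4415, beside 3640.2 to 4075) and of meningeal and fibroblast markers (2.90 and 5.29, beside 1.88 to 2.50) were highest there. Intermediate progenitor markers (449.8, 582, 472, 634 and 615 CPM in mice 2 to 6) and endothelial markers (2.66, 2.87, 2.05, 3.37 and 3.62) followed neither order. The microglial markers *C1qa* and *C1qb* were at 0 in at least 1 TdTomato+ library, and *Aif1* and *Sox10* were not analysed here. The part of these cells in the *Kcnj10* result was not tested.

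*Kcnj10* made up 21.7 to 42.4% of the inward rectifier level per length in TdTomato- libraries and 0.440 to 0.901% in TdTomato+ libraries. *Kcnj11*, the pore of the ATP-sensitive channel that closes when the cell has energy, made up 35.2 to 51.9% in TdTomato- and 57.5 to 69.6% in TdTomato+ cells. It was at 48.4, 49.0, 48.6, 54.8 and 68.9 against 20.8, 25.2, 24.9, 30.9 and 42.4 CPM (log2 fold change 0.93, s.e. 0.07, adjusted p = 2.7e-06), with mouse 6 highest in both populations. *Abcc8*, the sulfonylurea receptor that completes this channel, rose as well, at 84.0 to 159.8 against 23.5 to 47.5 CPM (log2 fold change 1.76, adjusted p = 1.8e-08), whereas the other receptor gene, *Abcc9*, did not pass the test (-0.80, adjusted p = 0.066).

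The G-protein-gated inward rectifiers, which receptors for inhibitory transmitters open, went apart. *Kcnj3* rose from 10.7 to 13.8 CPM to 23.0 to 46.2 CPM (log2 fold change 1.55, s.e. 0.13, adjusted p = 3.8e-06), with a noncoding gene on the opposite strand, *Gm26794*, over 31.1% of its exons and a log2 fold change of 1.06 for that gene. *Kcnj9* rose (0.88, adjusted p = 3.7e-04), and *Kcnj6* did not pass (-0.13, adjusted p = 0.66). *Kcnj5* fell: its counts were 5, 8, 12, 5 and 0 in TdTomato+ and 24, 72, 105, 42 and 42 in TdTomato- libraries (log2 fold change -3.01, s.e. 0.35, adjusted p = 4.5e-05). Over all libraries of a population these counts summed to 30 against 285. Scaled by total counts alone, unlike the fold change, this puts the TdTomato- level at 9.09 times the TdTomato+ level. The exact 95% interval of 6.23 to 13.7 covers counting error only. *Kcnj12*, a strong rectifier of muscle and neurons, did not pass the test (0.06, adjusted p = 0.85).

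Two-pore-domain channels carry the background conductance that sets the resting potential, and the gene with the highest level per exon length differed between the populations. *Kcnk12* (ENSMUSG00000050138, chromosome 17 from 87745801 to 87797994, minus strand) had the highest log2 fold change of the 61 members, although *Kcnab1* exceeded it without the mouse block (4.02 against 3.96) and without mouse 3 (3.98 against 3.87) or mouse 4 (4.34 against 4.06). It was at 14.6, 14.6, 16.9, 11.1 and 13.1 against 1.09, 0.691, 1.32, 0.832 and 0.592 CPM (log2 fold change 3.97, s.e. 0.15, adjusted p = 2.6e-08), and the counts were 255 to 383 against 17 to 33. The TdTomato+ libraries lay close together, with a highest library of 1.53 times the lowest. *Kcnk3*, an acid-sensitive background channel, was at 13.9, 15.2, 15.1, 13.5 and 10.4 against 2.89, 2.56, 2.89, 2.42 and 2.23 CPM (log2 fold change 2.38, s.e. 0.10, adjusted p = 4.3e-08), and *Kcnk1* rose too (log2 fold change 1.36, adjusted p = 6.7e-05).

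*Kcnk5* (ENSMUSG00000023243, chromosome 14 from 20140057 to 20181809, minus strand), a background channel that alkaline conditions open, was close to the limit of counting in TdTomato+ cells. Its counts were 2, 7, 5, 2 and 4 in TdTomato+ and 140, 274, 225, 158 and 132 in TdTomato- libraries (log2 fold change -5.27, s.e. 0.21, adjusted p = 3.3e-08). Scaled by total counts alone, unlike the fold change, the summed counts of 20 and 929 put the TdTomato- level at 44.4 times the TdTomato+ level. The exact 95% interval for counting error was 28.6 to 73.1. In contrast to *Kcnj10*, *Kcnk5* was highest in the TdTomato- libraries of mice 3 and 4. The falls of these genes cannot be ranked, since without mouse 2 they were -5.18 for *Kcnk5* and -5.14 for *Kcnj10*. The stretch-sensitive channels *Kcnk2* and *Kcnk10* fell as well: *Kcnk2* was at 22.1, 16.0, 13.3, 24.0 and 18.6 against 37.2, 27.8, 29.1, 33.6 and 38.0 CPM (log2 fold change -0.83, s.e. 0.09, adjusted p = 2.5e-05), and *Kcnk10* had a log2 fold change of -0.51 (adjusted p = 3.3e-04).

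Per length, *Kcnk2* was the leading two-pore-domain gene of TdTomato- libraries, with 39.8 to 49.3% of the subfamily, and *Kcnk12* that of TdTomato+ libraries, with 26.0 to 43.3%. *Kcnk12* was 1.92 to 4.54% in TdTomato- libraries. This order too rests on the division by length, as in CPM *Kcnk10* (22.9) and *Kcnk2* (18.8) were above *Kcnk12* (14.1) in TdTomato+ cells. The summed level of the 6 genes was 18.9 to 23.7 against 13.9 to 15.9 CPM per kilobase, a mean log2 ratio of 0.48 within mice, which was -0.01 without division by length as the exons of *Kcnk12* and *Kcnk1*, 1972 and 2235 bases, are the shortest of the subfamily.

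*Kcne1l* was the single MinK-related gene of the table. MinK-related proteins are small single-span subunits that slow or silence Kv channels. It was at 1.09, 1.60, 1.10, 0.870 and 1.76 against 14.5, 6.77, 6.66, 15.8 and 16.3 CPM (log2 fold change -3.15, s.e. 0.26, adjusted p = 4.6e-06). Its TdTomato- libraries of mice 3 and 4 were below those of the other mice, as for *Kcnj10*, and the part of the marker genes that were lower in these libraries was not tested.

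The start regions of the members with the largest changes are shown because such genes differ most between the populations. Of the 61 members, 43 matched an entry by symbol in the RefSeq promoter table of GRCm38.p6, which gives 300 bases for each start, 250 before and 50 after it. Among the 9 members past both thresholds with exactly 1 entry, the 2 with the largest rise and the 2 with the largest fall are printed 5′ to 3′ on the strand of the gene, with CG dinucleotides, the sites of DNA methylation, in capitals. The windows are chr17:87797945-87798244 on the minus strand for *Kcnk12*, chr1:140245468-140245767 on the plus strand for *Kcnt2*, chr1:172340960-172341259 on the plus strand for *Kcnj10* and chr14:20181733-20182032 on the minus strand for *Kcnk5*. The RefSeq window of *Kcnt2* ends before the start of the gene in the annotation used here, 140246158.
*Kcnk12*: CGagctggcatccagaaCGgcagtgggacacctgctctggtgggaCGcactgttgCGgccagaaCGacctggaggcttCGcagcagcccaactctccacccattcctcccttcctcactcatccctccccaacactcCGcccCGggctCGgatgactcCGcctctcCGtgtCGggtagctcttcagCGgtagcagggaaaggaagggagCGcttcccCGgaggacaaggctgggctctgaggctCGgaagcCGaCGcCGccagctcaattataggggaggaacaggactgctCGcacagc
*Kcnt2*: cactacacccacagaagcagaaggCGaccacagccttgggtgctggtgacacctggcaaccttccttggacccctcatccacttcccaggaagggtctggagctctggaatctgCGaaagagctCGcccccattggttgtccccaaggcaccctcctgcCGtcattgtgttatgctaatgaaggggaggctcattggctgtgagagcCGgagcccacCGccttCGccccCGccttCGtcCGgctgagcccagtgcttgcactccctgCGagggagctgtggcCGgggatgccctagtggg
*Kcnj10*: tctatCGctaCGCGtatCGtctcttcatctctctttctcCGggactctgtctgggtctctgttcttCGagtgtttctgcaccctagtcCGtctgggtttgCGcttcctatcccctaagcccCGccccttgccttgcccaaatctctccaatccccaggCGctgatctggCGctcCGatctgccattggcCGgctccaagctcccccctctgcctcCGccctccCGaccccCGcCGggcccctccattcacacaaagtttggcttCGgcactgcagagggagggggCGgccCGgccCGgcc
*Kcnk5*: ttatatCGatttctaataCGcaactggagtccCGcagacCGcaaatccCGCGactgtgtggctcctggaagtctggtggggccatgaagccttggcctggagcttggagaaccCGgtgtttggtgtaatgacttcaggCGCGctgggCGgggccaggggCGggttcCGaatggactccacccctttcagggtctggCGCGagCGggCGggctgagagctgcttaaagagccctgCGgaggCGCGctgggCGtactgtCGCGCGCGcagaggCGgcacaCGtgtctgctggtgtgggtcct

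The *Kcnk12* window holds 20 CG and the *Kcnt2* window 12, and the windows of the genes that fell hold 21 (*Kcnj10*) and 26 (*Kcnk5*). The median was 12 over the 62 windows of members and 7 over all 32851 windows, so the rising and the falling genes shown here alike lie at or above the members' median. On both strands, the E-box CAGATG bound by neurogenin and NeuroD factors was found in 16.1% of member windows and 17.2% of all windows, the RBPJ motif GTGGGAA in 4.8% and 6.4%, and the SOX motif ACAATG in 8.1% and 12.6%. None of these motifs contains another, and of the 4 windows printed only that of *Kcnt2* holds one, the SOX motif. A match of letters is a description and not a binding site.

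Set in order of level per length, *Kcnq3* and *Kcng1* led in TdTomato+ cells at 36.2 and 36.1 CPM per kilobase, with overlapping ranges. At lower levels stood *Kcna6* (15.4), *Kcnj11* (14.7), *Kcnip3* (13.2), *Kcnmb4* (12.9) and *Kcnc1* (11.6), in which each neighbour overlapped the next. In TdTomato- cells *Kcna3* (9.96), *Kcnip3* (9.66), *Kcnq3* (8.43) and *Kcnd3* (8.12) followed each other, with overlap between all neighbours in this order.

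Several members varied between mice far more than the rest. The median over members of the highest library divided by the lowest was 1.62 in TdTomato+ cells, against 1.51 in TdTomato- cells. In TdTomato+ libraries *Kcnab1* (7.62) and *Kcnip2* (7.37) stood far above this, and *Kcnq5* (2.80), *Kcna4* (2.49), *Kcnk1* (2.36) and *Kcnj3* (2.01) followed among members of at least 5 CPM. *Kcnip2*, *Kcnab1*, *Kcnq5*, *Kcnk1* and *Kcnj3* were all lowest in mice 3 and 4, whereas *Kcna4* was highest there. Over the 61 members, mice 3 and 4 were the lowest libraries for 13 (21.3%) and the highest for 20 (32.8%) in TdTomato+ cells, beside 19.7% and 19.6% of all genes, and the lowest for 16 (26.2%) and the highest for 11 (18.0%) in TdTomato- cells, beside 16.2% and 17.3%. These mice were picked out after the values had been seen, and the labels name no batch.

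**Figure D4:**
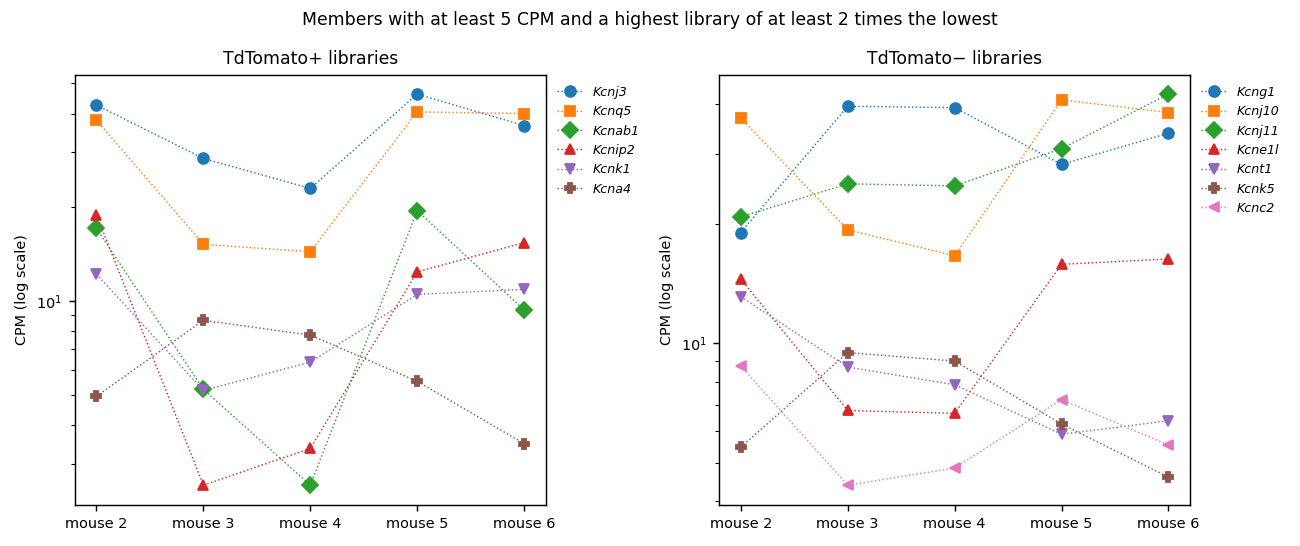
CPM on a log axis by mouse for members of at least 5 CPM whose highest library was at least 2 times the lowest, in TdTomato+ (left) and TdTomato- libraries (right); dotted lines join the libraries of a gene and imply no order of mice. In TdTomato+ cells *Kcnj3*, *Kcnq5*, *Kcnab1*, *Kcnip2* and *Kcnk1* dip in mice 3 and 4 and *Kcna4* peaks there, and in TdTomato- cells *Kcnj10*, *Kcne1l* and *Kcnc2* dip and *Kcnk5* peaks in the same mice.

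Genes outside the channel family that act with it had a smaller median log2 fold change than the members. Of 31 listed partners, pump subunits and HCN channels, 28 were in the table, 17 were higher and 5 lower by adjusted p, where 37.9% and 39.4% of all genes were, and the median log2 fold change was 0.52. *Lrrc26*, *Lrrc38* and *Lrrc52* were not analysed here. Past both thresholds, 3 of the 28 were higher and 1 was lower, beside 3.20% and 9.74% of all genes. *Lgi1* and *Lrrc55*, given above, were among the higher.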

How the data were processed

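Polyadenylated RNA of sorted cells was sequenced, and the deposited values are the authors' raw counts per gene, not normalized. Reads had been trimmed and aligned to GRCm38 with STAR (version 2.4.2a in the submitters' processing notes, which also list edgeR 3.28.0), and those that mapped once were counted. The annotation release and the strand setting are not given in the sources used here. The sample descriptions and the methods differ in library kit, RNA amount, sequencer and read length, and the descriptions give brain as the tissue, where the methods give the dissected dorsal telencephalon without meninges.

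Symbols, coordinates and exon lengths came from the GENCODE annotation of GRCm38. Differences were tested by quasi-likelihood in edgeR 4.0.16 under R 4.3.3, after filterByExpr and TMM scaling (factors of 0.929 to 0.946 for TdTomato+ and 1.06 to 1.07 for TdTomato- cells), over all 14300 genes, with mouse as a block, a prior count of 0.125 in fitted fold changes and Benjamini-Hochberg adjustment. The standard error (s.e.) is the fold change divided by the square root of F. CPM used TMM-scaled library sizes, log2 CPM a prior count of 2, and levels per length were CPM divided by exonic kilobases. Counts up to 3 were treated as the floor. The procedure was tested on simulated data.

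The methods state paired comparisons without saying what pairs the libraries, and the numbers of the sample titles were taken as mice and as pairs. Deviations of same-numbered libraries from their group means correlated with r = 0.303, 0.268, 0.281, 0.186 and 0.316 for mice 2 to 6, against -0.312 to 0.212 between different numbers. No replicate pair agreed within sampling noise. The labels give the mice by number only, so p-values measure the spread between these samples.

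Genes given in every library were members past both thresholds and the leading gene per length of each subfamily with at least 2 members, besides some whose values bear on these. A few members and partner genes are not reported here by name or drawn, but stay in the counts and sums. The members and gene lists were chosen with earlier results of these data known. Alternatives were RLE, upper-quartile and total-count scaling, DESeq2 1.42.0, TREAT, no count filter, more than 1 CPM in 5 libraries, no replicate block, a prior count of 2, leaving out each mouse, and summed levels without division by length.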

Additional observations from a re-analysis of the deposited data

How the results depend on the processing

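The 12 higher and 6 lower members past both thresholds became 7 and 4 under TREAT, 9 and 7 with total counts, and 12 and 5 with a prior count of 2. They were 12 and 6 with RLE, upper-quartile scaling, DESeq2, no count filter, more than 1 CPM in 5 libraries (58 members tested) and no replicate block. Without the paired design the members past the adjusted p alone were 39 higher and 14 lower, *Kcna3* being the gene that lost its call. Leaving out 1 mouse gave 12 to 13 higher and 5 to 6 lower. The direction of no member called changed in any of these fits, and *Kcnh2*, which was not called, was at -0.12 with total counts. Among adjusted p calls, *Kcng3* was lost with DESeq2 and with total counts, *Kcns2* gained a call with total counts, and *Kcnab3* and *Kcns2* gained one without mouse 2 and mouse 3, respectively. *Kcnc4* passed the fold threshold without mouse 2 or 6, *Kcnf1* without mouse 5, and *Kcnip2* without mouse 3 or 4. Without division by length, the mean log2 ratio of the summed level was -0.01 for the two-pore-domain genes (0.48 with it), 0.36 for the EAG, ERG and ELK group (0.11), 1.53 for Kv1 (1.06), 0.61 for the Kv1 beta subunits (0.46), -0.17 for Kv4 (-0.03), 1.65 for Kv7 (1.72), 0.53 for SK (0.31) and 1.06 for all pore-forming members (0.86). Without division by exon length the leading gene differed for Kv1 and the inward rectifiers (in TdTomato- cells), for the two-pore-domain and SK genes (in TdTomato+ cells) and for the Slo genes and the EAG, ERG and ELK group (in both). This division uses the exons of all transcripts, so a gene expressed as a short transcript is understated. Depth limits the TdTomato+ levels of *Kcnk5* and *Kcnj5*, with 20 and 30 counts in all.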
